A study of Mus musculus with 16 samples.

Results

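The SOCS family of mouse genes was examined, which encodes feedback inhibitors of cytokine signalling. Its 8 members are Socs1, Socs2, Socs3, Socs4, Socs5, Socs6, Socs7 and Cish, and all 8 were found by gene symbol among 38293 genes with RNA counts. They were chosen by name, as the members of the family, with earlier results of these data known. The series compares 2 mouse lymphoid tumour lines in 16 samples, of which 6 are RNA-Seq libraries (3 per line) and 10 are ChIP-Seq samples. P6D4 is a derivative of SCID.adh, a thymic lymphoma, with the label DN3, the thymocyte stage at which the T cell receptor beta chain is rearranged. 70Z/3 is a lymphoblast line labelled Pre-B, the stage at which the immunoglobulin heavy chain is made but the complete receptor is not. Miz1, the zinc finger factor encoded by Zbtb17, was mapped by ChIP-Seq once in each line, while samples of histone marks and input were not used here. The labels state no treatment, genotype or age for either line. Each lineage is represented by 1 line, so lineage and line cannot be told apart. The labels do not say that the 3 libraries of a line stem from separate cultures, and p-values here speak only of library-to-library spread, which may be technical.

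Cytokine receptors of this kind have no kinase of their own and work through bound JAK kinases, which phosphorylate the receptor and STAT transcription factors. STAT factors then induce a set of genes that includes Cish, Socs1, Socs2 and Socs3, and the encoded proteins shut the pathway off again. Each family protein carries an SH2 domain, which docks on phosphorylated tyrosine, and a SOCS box, which recruits Elongin B, Elongin C and Cullin 5 to form a ubiquitin ligase. Socs4, Socs5, Socs6 and Socs7 are less tied to STAT induction and are known mainly for links to receptor tyrosine kinases and insulin signalling. In lymphocytes Socs1 is a main brake on interferon-gamma and on cytokines that use the common gamma chain, among them IL-7, on which early T and B cells depend.

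Promoter windows of 280 bases, from 250 bases before the annotated start to base 30 after it, were taken from RefSeq (GRCm38.p6) for the 4 members in the promoter table, Cish, Socs1, Socs3 and Socs4. For Socs2, Socs5, Socs6 and Socs7 no window was used here. The first 3 are printed 5′ to 3′ on the gene's own strand. Cish is shown because a Miz1 peak of 70Z/3 lies next to its window, and Socs1 and Socs3 because their RNA was found in opposite lines. Capitals mark matches to TTCNNNGAA, the palindrome that STAT dimers bind. The Cish window is chr9:107296409-107296688 on the plus strand, that of Socs3 is chr11:117969337-117969616 on the minus strand, and that of Socs1 is chr16:10785507-10785786 on the minus strand.
Cish: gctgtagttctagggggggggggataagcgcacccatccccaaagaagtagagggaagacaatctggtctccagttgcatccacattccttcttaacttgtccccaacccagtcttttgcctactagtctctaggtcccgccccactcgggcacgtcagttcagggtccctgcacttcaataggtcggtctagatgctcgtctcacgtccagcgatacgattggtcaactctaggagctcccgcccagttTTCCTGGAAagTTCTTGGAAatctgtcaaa
Socs3: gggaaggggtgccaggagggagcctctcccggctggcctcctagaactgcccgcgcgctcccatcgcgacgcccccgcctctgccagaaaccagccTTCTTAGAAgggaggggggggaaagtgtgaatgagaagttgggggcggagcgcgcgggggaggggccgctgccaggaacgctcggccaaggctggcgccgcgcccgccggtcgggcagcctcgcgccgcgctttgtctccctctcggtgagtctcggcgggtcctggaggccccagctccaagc
Socs1: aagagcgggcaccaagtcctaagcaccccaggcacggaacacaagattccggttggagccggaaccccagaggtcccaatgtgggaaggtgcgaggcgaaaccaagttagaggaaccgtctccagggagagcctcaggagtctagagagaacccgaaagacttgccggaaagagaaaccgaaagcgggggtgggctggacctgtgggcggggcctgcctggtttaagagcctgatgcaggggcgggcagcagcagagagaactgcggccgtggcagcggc

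The Cish window held 2 matches, TTCCTGGAA beginning at base 1 of the annotated transcript and TTCTTGGAA beginning at base 12. The Socs3 window held 1 match, TTCTTAGAA, beginning 154 bases before the start. That window lies wholly inside the RefSeq bounds of Socs3 (chr11:117966079-117970336), so the start used is not at the upper bound of this minus-strand gene. The windows of Socs1 and Socs4 held none. Of 32851 promoter windows of this length in the table, 7.83% held the motif on either strand. None of the 4 member windows held CACGTG, the E-box bound by Myc with Max (6.79% of all windows), or ATCGGT, core letters of a Miz1 motif (2.16%). Both strands were searched for each motif. A match describes the letters in the window and is not a measured binding site, and the absence of a match says nothing about binding. The GC content was 53.2% in the Cish window, 62.1% in Socs1, 72.1% in Socs3 and 70.4% in Socs4, beside a median of 52.5% over all windows.

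The RNA libraries held 48.3 to 54.8 M (mega) gene counts in P6D4 and 45.5 to 48.9 M in 70Z/3. Pre-B marker genes summed to 0.759 to 1.32 CPM (gene counts per M counts of the library, scaled with TMM) in the P6D4 libraries and 1867 to 1919 CPM in 70Z/3, and thymocyte markers to 3740 to 3792 and 141 to 144 CPM. All 8 pre-B markers were lower and all 10 thymocyte markers higher in P6D4, as the labels of the lines have it. The 6 myeloid genes summed to 30.9 to 37.7 CPM in P6D4 and 23.3 to 24.9 CPM in 70Z/3, and differed in both directions. Itgam was at 29.1 CPM in P6D4 and 7.07 in 70Z/3, Cd68 at 3.46 and 1.99, and Lyz2 at 1.96 and 12.3. S100a8 and Mpo had 1 and 8 counts in P6D4 and 0 and 1 in 70Z/3, and Csf1r had 2 and 398. The 4 erythroid genes summed to 0.631 to 0.835 and 1.28 to 1.49 CPM, with Hbb-bt at 0 in P6D4 and Hba-a1 at 0 in 70Z/3. The 4 NK cell genes summed to 0.190 to 0.410 and 22.8 to 24.5 CPM, with Eomes at 0 in both lines and Ncr1 at 0 in 70Z/3. Most of the 70Z/3 sum was Klrd1, at 21.0 CPM there and 0 in P6D4. Klrb1c was at 0.169 CPM in P6D4 and 2.47 in 70Z/3. Of 4 stromal genes, Col1a1, Col1a2 and Pdgfra had 0 counts in P6D4 and 12, 1 and 2 in 70Z/3, so that the list's sum (57.0 to 65.2 and 80.5 to 86.5 CPM) was nearly all Pecam1. The part of other cells in the values below was not tested. Of 13750 genes tested with edgeR, 43.3% were higher and 43.2% lower in P6D4 at a Benjamini-Hochberg adjusted p under 0.05, in all 86.5%, so a call by itself sets no gene apart in this comparison.

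Among the STAT-induced members, Socs3, Socs2 and Socs1 differed in level between the lines, Socs1 at low counts and not tested. Of the 6 members tested, 1 was higher and 1 lower in P6D4 beyond 2-fold. These shares were near the 16.6% and 18.6% of all genes tested. Socs3 was present in P6D4 and all but absent from 70Z/3, while Socs2 and Socs1 were found in 70Z/3 and were low or at 0 in P6D4. Cish was at or near 0 in both lines. Socs4, Socs5, Socs6 and Socs7 were detected at similar levels in both, with differences of 1.14-fold to 1.43-fold. In bulk RNA of a line, fewer cells with a transcript and less RNA per cell cannot be told apart.

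**Figure D1:**
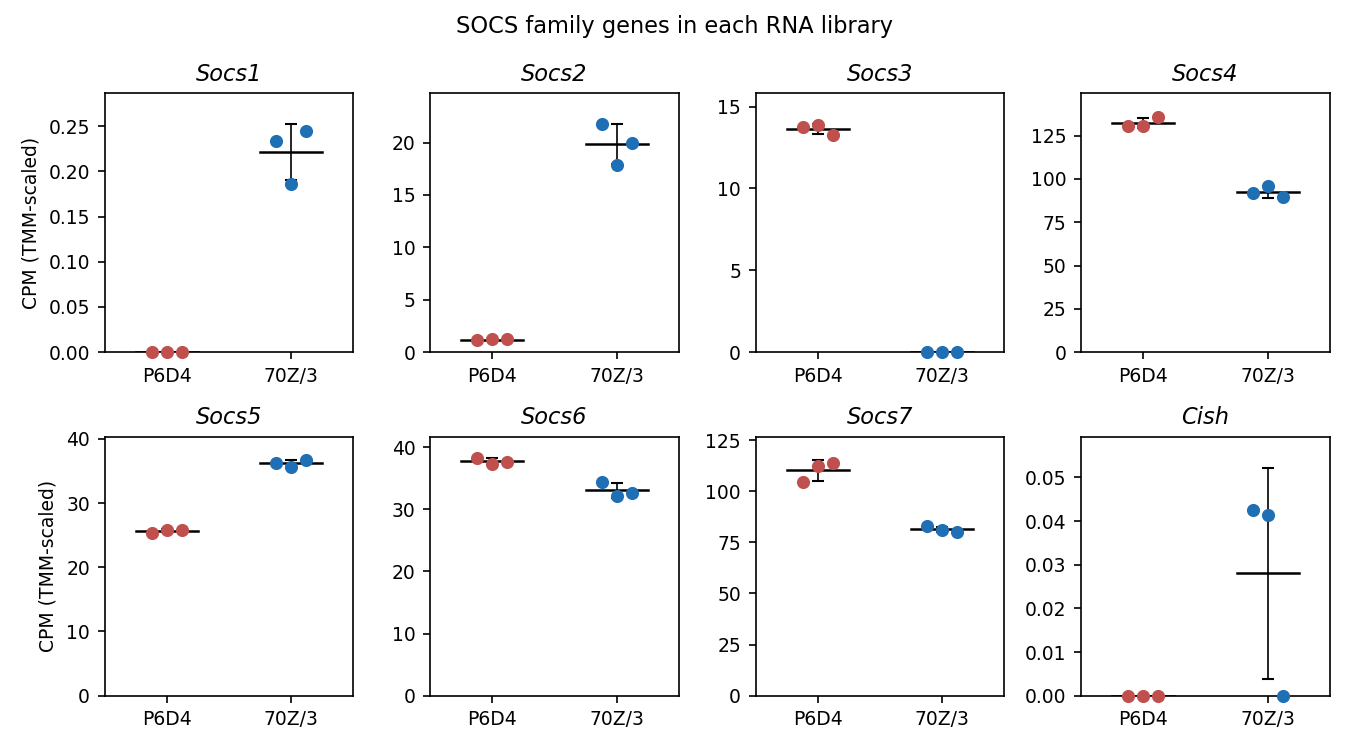
Level of each SOCS family member in each RNA library, in CPM on a linear axis from 0 with a scale of its own for each gene. Points are libraries, 3 per line, and bars are the mean with 1 SD. Socs3 points of P6D4 sit at 13.3 to 13.9 CPM with those of 70Z/3 at or near 0, Socs2 and Socs1 lie the other way round, and for Socs4, Socs5, Socs6 and Socs7 both lines lie well above 0.

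Socs3, which binds the gp130 chain of the IL-6 receptor family and blocks the JAK kinases attached to it, showed the widest separation of the tested members. Raw counts were 762, 731 and 647 in the 3 P6D4 libraries and 0, 1 and 0 in those of 70Z/3. As levels these were 13.7, 13.9 and 13.3 CPM in P6D4 and 0, 0.0207 and 0 CPM in 70Z/3. The lines did not overlap, and the whole 70Z/3 signal was 1 count in 1 library. The ratio of summed counts, scaled for depth, was 1913 with an exact 95% counting interval of 343 to 75605, which covers counting error only. In edgeR the fitted log2 fold change was 10.46 ± 0.23 (SE, n = 3 per line, adjusted p = 3.33e-14), and 96.0% of tested genes had a smaller fold change in either direction. Without 70Z/3 replicate 2, the library with that count, the fitted value was 12.40.

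Socs2, the member known chiefly as the brake on growth hormone receptor signalling, lay in the other direction. Its counts were 62, 64 and 63 in P6D4 and 1024, 863 and 898 in 70Z/3, or 1.12, 1.21 and 1.29 CPM against 21.8, 17.9 and 19.9 CPM. Every 70Z/3 library was above every P6D4 library, and the P6D4 libraries still held well over the detection floor of 3 counts per library. The means were 1.21 ± 0.0878 CPM in P6D4 against 19.9 ± 1.95 in 70Z/3 (SD, n = 3), 16.4-fold higher in 70Z/3. The log2 fold change was -4.04 ± 0.11 (edgeR SE, adjusted p = 2.5e-13), and 82.4% of tested genes had a smaller fold change.

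Socs1, which inhibits JAK kinases directly through a short region ahead of its SH2 domain, had counts of 0, 0 and 0 in P6D4 and 11, 9 and 11 in 70Z/3. As levels these were 0 CPM in every P6D4 library and 0.234, 0.186 and 0.244 CPM in 70Z/3 (mean 0.222 ± 0.0308, SD, n = 3). All 31 counts of the gene lay in 1 line, evenly over its 3 libraries. These counts were too low for the filter ahead of the edgeR test. Against a floor of 3 counts in the smallest P6D4 library (0.0616 CPM), Socs1 was at least 3.60-fold lower in P6D4. An exact two-sided permutation test over the 6 libraries gave p = 0.1, the smallest p that 3 libraries against 3 allow. With no filter on low counts edgeR called it lower (adjusted p = 7.29e-07). The count of lower members was also 3 with DESeq2, without each P6D4 library in turn and without 70Z/3 replicate 2. It was 2 with the other scalings, with a replicate block and without 70Z/3 replicate 1 or 3. At 0 counts in P6D4, Socs1 can enter a fit only through 70Z/3, so these counts are no separate support.

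Cish, the member that docks on receptors of the growth hormone, prolactin, erythropoietin and IL-2 type and is a classical target of STAT5, had no count in P6D4 and 2, 2 and 0 counts in 70Z/3. The 70Z/3 levels were 0.0425, 0.0414 and 0 CPM. With 1 of its libraries at 0, 70Z/3 overlapped P6D4, and both lines were at or under the floor of 3 counts per library, so no fold is given. The exact two-sided permutation p was 0.4. Cish RNA was thus not detectable above this floor in either line, at 45.5 M gene counts or more per library.

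STAT5, the factor best known for inducing Cish and Socs2, is encoded by Stat5a and Stat5b. Stat5a was at 79.0 ± 5.54 CPM in P6D4 against 59.7 ± 1.07 in 70Z/3, and Stat5b at 136.8 ± 8.24 and 102 ± 6.93 CPM (SD, n = 3). Both genes were thus well covered in the lines where Cish was at or near 0. Both were higher in P6D4, with log2 fold changes of 0.40 ± 0.05 and 0.42 ± 0.05 (edgeR SE, adjusted p = 3e-06 and 5e-06). RNA counts do not report whether a STAT protein is phosphorylated.

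Socs4, a member linked to signalling of the EGF receptor, and the remaining 3 members were all well above the floor of 3 counts in every library. The levels of Socs4 were 131, 131 and 136 CPM in P6D4 and 92.1, 95.8 and 89.2 CPM in 70Z/3. The lines did not overlap, and the gap between them was wider than the spread within either. The log2 fold change was 0.52 ± 0.04 (edgeR SE, adjusted p = 1.31e-08), 1.43-fold higher in P6D4.

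Socs7, which binds insulin receptor substrates and the adaptor Nck, was at 104, 112 and 114 CPM in P6D4 and at 82.8, 81.2 and 80.2 CPM in 70Z/3. All P6D4 libraries were again above all those of 70Z/3, although replicate 1 of P6D4 lay below its other two. The log2 fold change was 0.44 ± 0.04 (edgeR SE, adjusted p = 1.83e-07), or 1.35-fold.

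Socs6, which binds the stem cell factor receptor KIT, was at 38.2, 37.2 and 37.7 CPM in P6D4 and at 34.5, 32.2 and 32.6 CPM in 70Z/3. It had the smallest difference of the tested members, and the lines came within 3 CPM of each other without overlapping. The log2 fold change was 0.19 ± 0.04 (edgeR SE, adjusted p = 0.00124), and only 17.3% of tested genes had a smaller one.

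Socs5, linked to the EGF receptor and to the IL-4 receptor, was the member of these 4 that was lower in P6D4. Its levels were 25.4, 25.8 and 25.9 CPM in P6D4 and 36.3, 35.7 and 36.7 CPM in 70Z/3, with no overlap. The log2 fold change was -0.50 ± 0.04 (edgeR SE, adjusted p = 1.01e-07), 1.41-fold higher in 70Z/3.

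**Figure D2:**
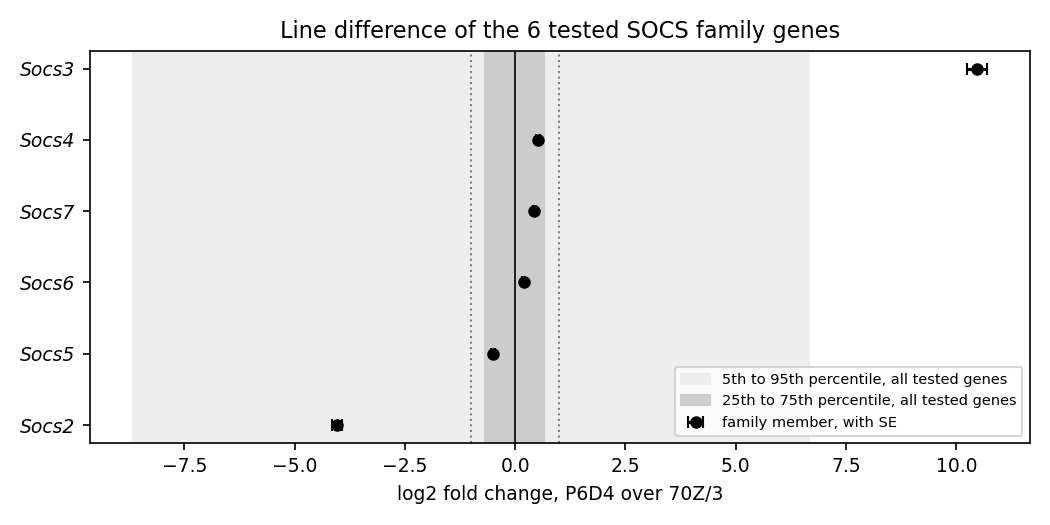
Fitted log2 fold change of the 6 tested SOCS members, P6D4 over 70Z/3, with bars of 1 SE, over bands that hold the 5th to 95th and the 25th to 75th percentile of all genes tested; dotted lines mark 2-fold. Socs3 (10.46) and Socs2 (-4.04) lie far from 0, and Socs4, Socs5, Socs6 and Socs7 lie between -0.50 and 0.52.

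Of the 6 members tested, 4 were higher in P6D4 (Socs3, Socs4, Socs6 and Socs7) and 2 lower (Socs2 and Socs5), beside 43.3% and 43.2% of all genes tested. In each of the 6 the libraries of the lines did not overlap, which held for 87.4% of all tested genes, so this share is near the background. Against a change of 2-fold (glmTreat of edgeR), 1 member was higher, Socs3, and 1 lower, Socs2, beside 16.6% and 18.6% of tested genes. The adjusted p for a change over 2-fold was 1 for Socs4, Socs5, Socs6 and Socs7. The median log2 fold change of the 6 was 0.31, beside 0.01 over all genes tested, and the median size regardless of sign over all genes was 0.67. The 4 smaller differences thus lay under that median size, with 42.1% of tested genes below Socs4, 40.6% below Socs5 and 36.9% below Socs7. Socs1 and Cish were not tested and are not in these counts.

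For each tested member the gene with the nearest pattern was sought among 11717 tested genes with an established symbol, by the Euclidean distance between mean-centred log2 CPM over the 6 libraries, which mainly reflects the difference between the lines. Celsr1, an atypical cadherin, was nearest to Socs3 (distance 0.201), with 277 ± 7.14 CPM in P6D4 and 0.845 ± 0.166 CPM in 70Z/3. The fitted log2 fold change of Celsr1 was 8.35, beside 10.46 for Socs3. Rnf122 was nearest to Socs2 (0.195), with 0.0192 ± 0.00126 CPM in P6D4, under the floor of 3 counts per library, against 0.884 ± 0.0271 in 70Z/3. Its fitted log2 fold change was -5.36, beside -4.04 for Socs2. The prior count added to log2 CPM narrows the gap in both of these pairs. Distances were shorter for members with small differences, namely 0.0442 for Rnf8 with Socs4, 0.0394 for Terf2ip with Socs5, 0.0233 for Mier1 with Socs6 and 0.038 for Cmas with Socs7. These are descriptions over 6 libraries that share 2 lines.

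Miz1 peaks near the members were few. A summit within 5 kb of the RefSeq gene bounds was found at 0 of 8 members in the P6D4 list and at 2 of 8, Cish and Socs2, in the 70Z/3 list. Over 21887 protein-coding genes the same rule gave 11.6% with the P6D4 list and 12.9% with the 70Z/3 list. Each list comes from 1 ChIP library, so a peak in 1 list only has no replicate check and shows no difference in binding. The Miz1 libraries also differed in tags kept at 1 per position, with 2067731 of 60841509 (3.40%) in P6D4 and 4484034 of 30865119 (14.5%) in 70Z/3. P6D4 thus had more tags in all but fewer kept. The authors' controls held 30.4 and 99.8 M kept tags, and the lists held 21629 and 10462 peaks.

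The Cish peak of 70Z/3 spans chr9:107296752-107297021, with its summit at 107296888. That is 229 bases after the annotated start of Cish (chr9:107296659-107302784), inside the gene. The peak begins 64 bases beyond the end of the printed window with its 2 STAT motif matches. Its pileup was 8 tags and its fold over local background 5.46, with a −log10 q of 4.50, all the authors' values. It was among the weaker peaks, since 86.4% of the list had a higher −log10 q. A second 70Z/3 peak lay 6964 bases before the start, outside the 5 kb window and near Mapkapk3, with a fold of 5.24. The predicted gene Gm17040 is also within 5 kb of the first summit. Cish thus had a peak at its start in 70Z/3, with RNA at or under the floor there. In P6D4, where Cish had 0 counts, the nearest listed summit lay 81.1 kb away. A link between peak and RNA was not tested.

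The Socs2 peak of 70Z/3 spans chr10:95415663-95415988, with its summit at 95415823, 1498 bases inside the upper bound of the gene (chr10:95383903-95417321). Its pileup was 12 tags, its fold 7.88 and its −log10 q 9.03, and 36.1% of the list had a higher −log10 q. It was thus stronger than the Cish peak within the same list, and the median fold of the list was 7.28. Gm33230 and 5730420D15Rik also lie within 5 kb of this summit. 70Z/3 is the line with the higher Socs2 RNA, but a link between this peak and RNA was not tested. No Socs2 summit of the P6D4 list lay nearer than 741 kb.

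At Socs7 a P6D4 peak (chr11:97357059-97357329) had its summit 5148 bases outside the lower gene bound (chr11:97362292-97398542), just beyond the 5 kb window, although its nearest base was 4963 bases away. Its fold was 6.15 and its −log10 q 5.96, with 62.0% of the list higher, and Gpr179 is within 5 kb as well. The remaining members had no summit near. The nearest summits of the P6D4 and 70Z/3 lists lay 101 and 359 kb from Socs1, 462 and 156 kb from Socs3, 314 and 525 kb from Socs4, 90.6 and 71.4 kb from Socs5, and 47.2 and 51.5 kb from Socs6. Socs3, the member with the largest RNA difference, thus had no summit nearer than 156 kb in either list. Zbtb17 RNA, which encodes Miz1, was at 45.4 ± 0.887 CPM in P6D4 against 41.1 ± 0.506 in 70Z/3 (SD, n = 3), for a log2 fold change of 0.14 ± 0.04 (edgeR SE, adjusted p = 0.00426).

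**Figure D3:**
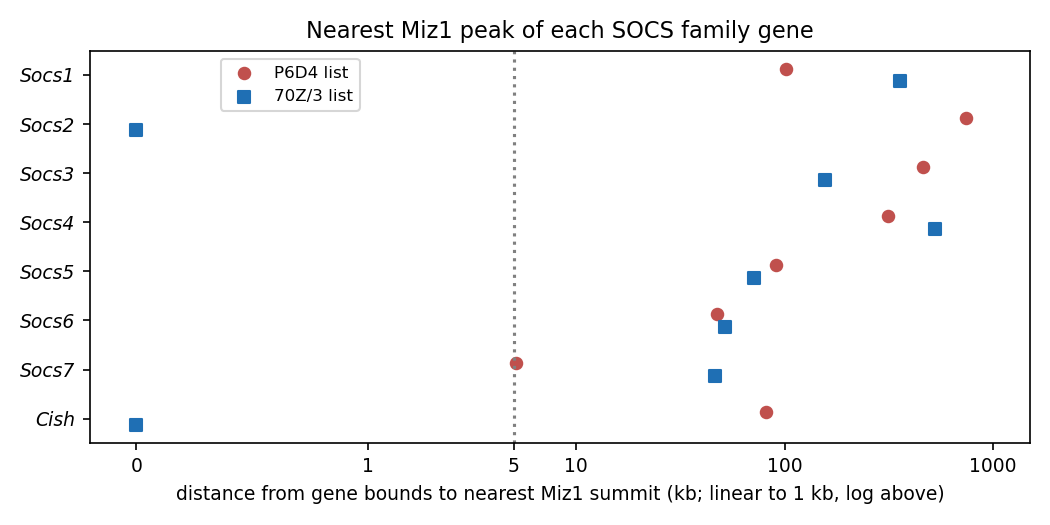
Distance in kb from each SOCS member's gene bounds to the nearest Miz1 peak summit in the P6D4 and 70Z/3 lists, on an axis linear to 1 kb and logarithmic above, with 0 for a summit inside the gene and a dotted line at 5 kb. Points at 0 are those of Cish and Socs2 in 70Z/3, and Socs7 in P6D4 lies just outside the window at 5.15 kb.

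The pathway around the family was described by gene lists chosen with earlier results of these data known. Of 30 cytokine receptor chains 24 were tested. Of these, 13 were higher, 10 were lower and 1 missed the threshold, around a median log2 fold change of 0.29. As background for this list and those below, edgeR called 86.5% of 13750 genes, 43.3% with a rise and 43.2% with a fall. The median over those 13750 genes was 0.01. A high share of calls by itself thus sets no list apart. Il6st, which encodes the gp130 chain that Socs3 binds, was detected in both lines, at 52.3 ± 1.44 CPM in P6D4 against 38.8 ± 1.10 in 70Z/3. Il6ra, the other chain of the IL-6 receptor, was low in P6D4 at 0.287 ± 0.0211 CPM against 0 in every 70Z/3 library, at least 4.31-fold higher. Ghr, the growth hormone receptor that Socs2 restrains, had 0 counts in P6D4 and 7 in 70Z/3 and was not tested, while Prlr, the related prolactin receptor, was at 0.639 ± 0.0415 and 0.687 ± 0.165 CPM without passing the edgeR test (adjusted p = 0.666).

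Receptors of the IL-2 type, whose signal Cish and Socs1 restrain, differed in both directions. Il2rb was at 154 ± 19.2 CPM in P6D4 against 0.269 ± 0.0661 in 70Z/3, and Il9r at 99.7 ± 7.58 and 0.128 ± 0.0527 CPM. Il7r was lower in P6D4 at 79.1 ± 5.52 against 166.7 ± 17.3 CPM, and Il4ra at 1.75 ± 0.353 against 52.5 ± 1.84 CPM. Epor, the erythropoietin receptor, was at 4.72 ± 0.907 CPM in P6D4 with 0 in 70Z/3, at least 70.8-fold higher. Lifr, the leukaemia inhibitory factor receptor, was at 0 in P6D4 against 0.579 ± 0.0846 CPM in 70Z/3, so P6D4 was at least 9.41-fold lower. Csf2ra had 1 count in P6D4, in replicate 2, and 2.21 ± 0.212 CPM in 70Z/3, a ratio of 347 with a 95% counting interval of 61.8 to 13739. Its fitted log2 fold change of -7.96 became -9.76 without that library.

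All 11 JAK kinases and STAT factors were tested, and 7 were higher and 4 lower in P6D4, with a median log2 fold change of 0.40. Jak1, a kinase that Socs1 and Socs3 inhibit, was lower in P6D4 at 198 ± 2.67 against 679.9 ± 33.8 CPM (log2 fold change -1.78 ± 0.04). Stat4, the factor of IL-12 signalling, had the largest difference at 0.823 ± 0.121 against 101 ± 6.29 CPM (-6.92 ± 0.09). Stat3, which IL-6 type cytokines use and which induces Socs3, was higher at 197 ± 15.5 against 105 ± 2.96 CPM (0.91 ± 0.05). Errors on CPM are SDs of 3 libraries and those on log2 fold changes are SEs from edgeR.

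The ligase that the SOCS box recruits differed little in most of its parts. Of 9 partner genes, 3 were higher, 3 were lower and 3 missed the threshold, around a median log2 fold change of 0.04. Cul5, the cullin of the complex, had a log2 fold change of -0.18 ± 0.04, and Elob, one of the adaptors, had -0.03 ± 0.04 and was not called (edgeR adjusted p = 0.452). The other adaptor, Eloc, was lower in P6D4 (-0.73 ± 0.03), as was the NEDD8 conjugating enzyme Ube2f (-0.97 ± 0.04). Rbx1, a RING subunit used mainly by other cullins, was higher (1.17 ± 0.04), and so was Nedd8 itself (0.24 ± 0.04).

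Among 18 other SOCS box genes 14 were tested, with 6 higher and 7 lower and a median log2 fold change of -0.11. Spsb4 was found in P6D4 at 4.26 ± 0.569 CPM with 0 in 70Z/3, at least 63.9-fold higher, and Asb1 had a log2 fold change of 1.02 ± 0.05. Asb2 had 2 counts in P6D4, against 6.60 ± 0.604 CPM for 70Z/3 (ratio 517, 95% counting interval 143 to 4278), and Neurl2 a log2 fold change of -2.35 ± 0.13. These counts were near the shares over all genes tested (43.3% higher and 43.2% lower), so the split does not set the list apart.

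Of 15 other inhibitors of the pathway 14 were tested, with 7 higher, 5 lower and a median log2 fold change of 0.18. Usp18, a brake on the interferon receptor, rose 1.57 ± 0.14 on the log2 scale in P6D4, and Ptprc, the phosphatase CD45, rose 1.31 ± 0.04. Sh2b3, the adaptor LNK that restrains JAK signalling, fell by 2.54 ± 0.05. Dusp3 had 1 count in P6D4, in replicate 1, and 59.2 ± 1.16 CPM in 70Z/3, a ratio of 9282 with a 95% counting interval of 1666 to 366680. Its fitted log2 fold change was -12.70, and -14.48 without that library.

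Of 23 STAT target genes, a list that holds Cish, Socs1, Socs2 and Socs3 themselves, 21 were tested, with 8 higher, 11 lower and a median log2 fold change of -0.41. Fos and Pim3 were higher in P6D4 (log2 fold changes 2.20 ± 0.16 and 2.18 ± 0.06). Ccnd2, the cyclin D2 gene, was lower at -11.53 ± 0.11, with 4 counts in the P6D4 libraries. Bcl2, the survival gene, was lower at -11.28 ± 0.13, with 5 counts in P6D4, and this value was -10.69 without P6D4 replicate 1 and -11.94 without replicate 2. STAT targets outside the family, like those within it, were found higher in either line, as were all genes tested (43.3% higher and 43.2% lower in P6D4).

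**Figure D4:**
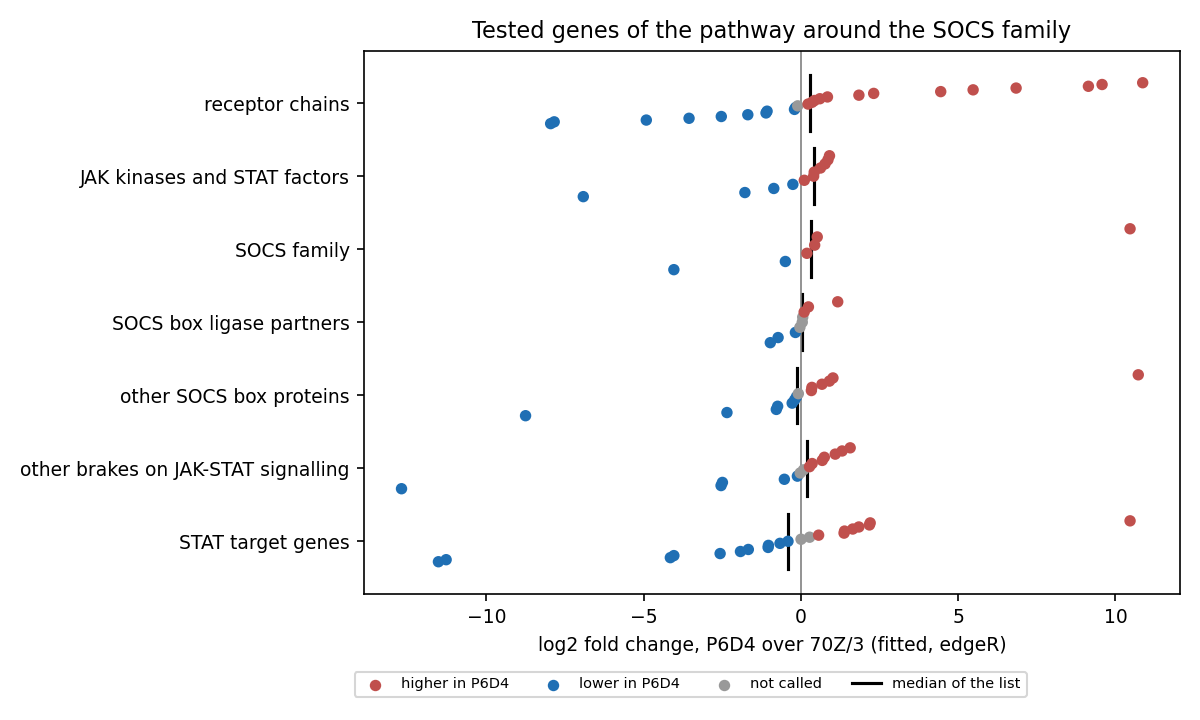
Fitted log2 fold change, P6D4 over 70Z/3, of every tested gene in each list around the SOCS family, with colour for the edgeR call and a black bar for the list's median. Medians lie between -0.41 and 0.40, and each list holds genes in both directions.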

How the data were processed

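RNA levels were measured in 6 RNA-Seq libraries and Miz1 binding in 1 ChIP-Seq library per line. Samples were grouped by the cell line and title labels. The deposited RNA values are raw counts for each Ensembl gene identifier, without normalisation. The submitters' processing notes name TopHat2 2.0.10, Bowtie2 2.10, HTSeq, SAMtools and bedtools, with builds mm10 and GRCm38. The kit was stranded, per the labels' protocols. Whether HTSeq counted by strand is not stated there, so counts of overlapping or antisense genes may be mixed. Lines of the count files that name no gene (reads outside genes, 14.5 to 16.0%, ambiguous reads, 0.382 to 0.424%, and others) were left out. Reads that aligned to more than 1 place are outside the counts.

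Counts were scaled with TMM, filtered with filterByExpr and tested across 13750 genes with edgeR 4.0.16 (quasi-likelihood test, Benjamini-Hochberg adjusted p under 0.05) in R 4.3.3, with the line as the only term. The SE is the log2 fold change divided by the square root of F, and it understates counting error at low counts. Log2 CPM for pattern distances used a prior count of 2. The procedure was tested on simulated data. DESeq2 1.42.0, other scalings, no filter, a replicate block and leaving out each library were tried. Within each line, counts of library pairs varied beyond sampling noise (chi-square over its degrees of freedom 2.56 to 14.7).

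Peaks were called by the authors with MACS 2.0.10.20120913 at a q-value threshold of 0.01, per the file headers, on 1 library per line. The deposited peak values are a pileup signal, a fold ratio over background, and −log10 p and −log10 q. RefSeq gene bounds and promoter windows of GRCm38.p6 were used, which carry no strand for members without a promoter window. Figures were drawn with matplotlib 3.10.9.

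Members and lists were chosen with earlier results of these data known. Named genes are the 8 members, the 2 called genes with the largest rise and the 2 with the largest fall of each list, Zbtb17, further receptor, JAK and STAT genes, and the gene nearest to each tested member. A gene that this rule names is not reported here. Cul5 and Elob were named outside this rule, after their values were seen, as the ligase's cullin and adaptor. Levels of different genes were not compared, since no transcript lengths were used.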

Additional observations from a re-analysis of the deposited data

How the results depend on the processing

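The 6 tested members kept their direction and their call under all 66 alternative fits, 11 for each member. Ranges were 10.01 to 12.40 for Socs3, -4.12 to -3.97 for Socs2, 0.49 to 0.57 for Socs4, -0.52 to -0.44 for Socs5, 0.16 to 0.25 for Socs6 and 0.41 to 0.49 for Socs7, with a highest edgeR or DESeq2 adjusted p of 0.0115, for Socs6. None of the 225 alternatives for named pathway genes changed a call, and the 108 for list counts stayed within 1.5 times. Requiring a change over 2-fold left 1 higher and 1 lower member. With no low-count filter 3 members were lower, Socs1 among them, beside 6718 of 20461 genes in that fit. Same-numbered libraries did not deviate together (correlations -0.0554, -0.0462 and 0.00835), and with a replicate block 4 members were still higher and 2 lower.

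In the P6D4 list 1 member, Socs7, had a peak with a 10 kb window, and 1 when any base of the peak within 5 kb counted. At a −log10 q of at least 10, 0 members had a peak in the 70Z/3 list, where 35.5% of peaks reached that value. Shares over all genes were not computed for these other rules, so these member counts have no background. Depth limits Cish and Socs1, whose counts lie at or near the floor, and a single ChIP library per line limits all peak values.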
